A study of Homo sapiens with 6 samples.

Results

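The genes of serine synthesis and of the folate cycle were examined after silencing of METTL16 in PANC-1, a long-established line of human pancreatic ductal cancer cells. A fixed list of 10 genes was matched by gene name to the 58735 genes of the deposited table, and all 10 were found once. They were divided into 3 genes of serine synthesis (PHGDH, PSAT1, PSPH), 2 genes of cytosolic folate enzymes (SHMT1, MTHFD1) and 5 genes of mitochondrial folate enzymes (SHMT2, MTHFD2, MTHFD2L, MTHFD1L, ALDH1L2). RNA-seq covered 3 samples that received a control siRNA (si-NC) and 3 that received an siRNA targeting METTL16 (si-METTL16). The methods call them biological triplicates and describe the sequenced cells as stably transfected. The transfection label of the si-NC samples reads WT, while their titles name the control siRNA. All samples come from a single cell line grown in DMEM with serum, and the siRNA used for sequencing is not named. In such bulk samples, fewer expressing cells and less RNA per cell cannot be told apart.

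Cells make serine in the cytosol from a glycolytic intermediate through PHGDH, PSAT1 and PSPH, which act in this order. The SHMT enzymes pass a carbon of serine to tetrahydrofolate, SHMT1 mainly in the cytosol and SHMT2 mainly in mitochondria, and glycine is left. In mitochondria, MTHFD2 or MTHFD2L oxidises the folate-bound carbon, MTHFD1L releases it as formate, and ALDH1L2 instead oxidises it to carbon dioxide. Formate reaches the cytosol, where the trifunctional MTHFD1 loads it again onto folate for the synthesis of purines, thymidylate and methyl groups. Several of these genes are known targets of ATF4, the transcription factor of the amino acid response, and folate-derived methyl groups feed the methionine cycle that makes SAM, the methyl donor of METTL16.

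The total counts were between 15725298 and 18054436 per sample. METTL16 had 91.5, 96.7 and 101 CPM in si-NC replicates 1, 2 and 3 and 34.8, 33.9 and 34.9 CPM in the si-METTL16 replicates, where CPM is the count scaled to library size after TMM normalisation. Its log2 fold change was -1.48 (standard error 0.07, adjusted p = 8.3e-05), and every si-METTL16 sample lay below every si-NC sample. Of 8 epithelial and ductal markers, 5 had a deposited FPKM of at least 1 in every sample, and the summed FPKM of the list was 352 to 455 in si-NC and 361 to 401 in si-METTL16 samples. Single members moved with the groups, since KRT19 (log2 fold change -1.40, adjusted p = 0.00111), CDH1 (-1.09, adjusted p = 0.00594), KRT7 (-0.84, adjusted p = 0.0117) and SOX9 (-0.25, adjusted p = 0.00987) fell, while KRT8 (-0.23), KRT18 (0.20) and EPCAM (0.44) did not pass the threshold. KRT17 had at most 8 counts in any sample, and the acinar markers CPA1 and AMY2A were at 0 in all 6. Of the 3 fibroblast markers, COL1A1 moved with the groups, with a summed FPKM of the list from 25.1 to 29.0 in si-NC and from 60.9 to 64.5 in si-METTL16 samples, while DCN and LUM had at most 8 counts in any sample. The 3 immune markers together had 1.18 to 1.21 FPKM in si-NC and 1.63 to 1.99 FPKM in si-METTL16 samples. Nearly all of this was CD68, which rose (log2 fold change 0.67, adjusted p = 0.00928), while PTPRC and CD3E had at most 5 counts in any sample. The part of such markers in the results below was not tested.

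All 10 genes passed the filter on low counts, and 2 of them changed. MTHFD1, the cytosolic trifunctional enzyme, rose to 1.68 times the si-NC level, and PSPH, the phosphatase of the last step of serine synthesis, fell to 0.57 times the si-NC level. None of the 5 mitochondrial genes passed the threshold, an adjusted p under 0.05 in the quasi-likelihood test of edgeR, adjusted by Benjamini-Hochberg over all 15089 genes tested. At an unadjusted p under 0.05 in the same test, 5 of the 10 genes would pass, among them 1 mitochondrial gene, MTHFD2L. At that threshold 6983 of all 15089 tested genes would pass, so that 5 of 10 was near the background. In the whole table, 35.9% of tested genes passed the threshold, 18.4% as higher and 17.5% as lower in si-METTL16 cells, so that the share of 2 in 10 was below the background. The groups did not overlap for 2 of the 10 genes, compared with 50.9% of all tested genes. The median log2 fold change of the 10 genes was -0.44, where that of all tested genes was -0.004.

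**Figure D1:**
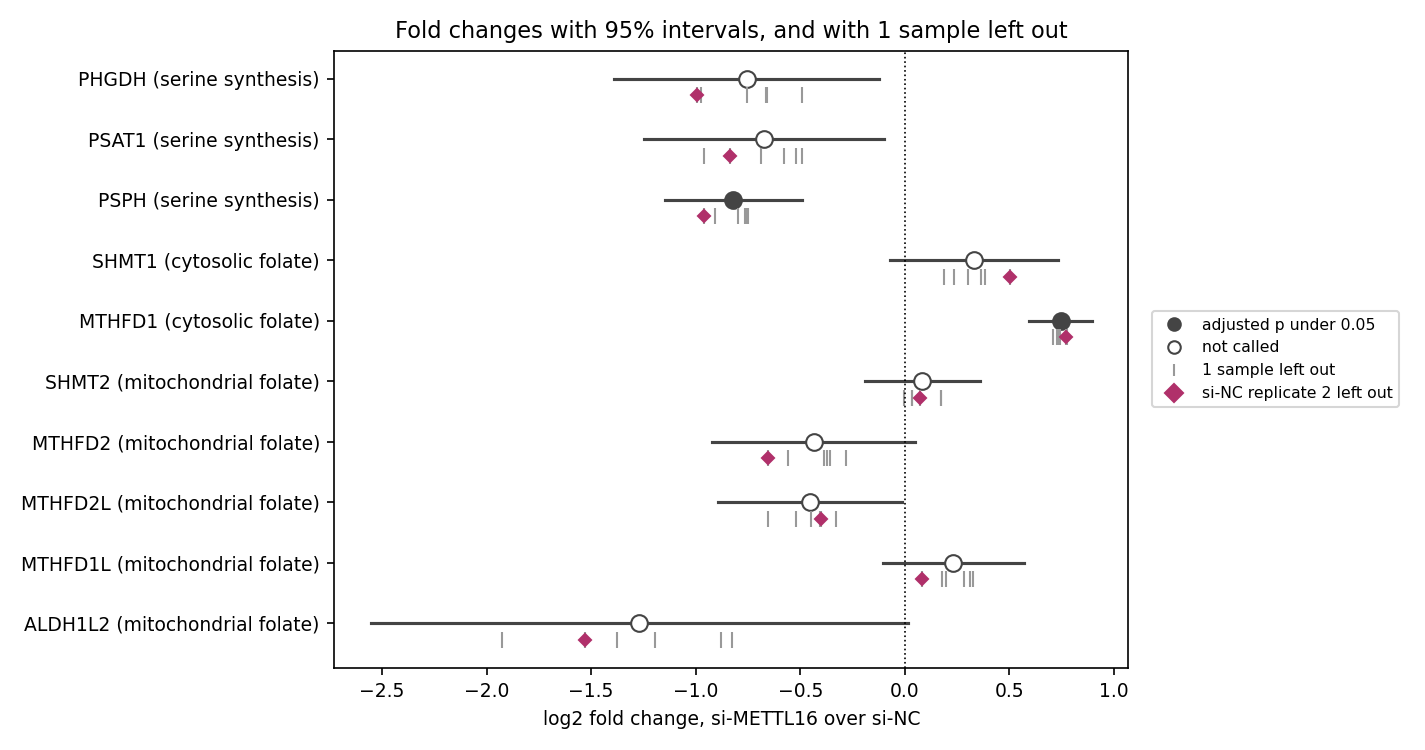
Log2 fold change of the 10 genes, si-METTL16 over si-NC, with 95% intervals (lines); filled circles passed the adjusted threshold, grey ticks are fits without 1 sample and diamonds the fit without si-NC replicate 2. MTHFD1 at 0.75 and PSPH at -0.82 have intervals clear of 0 and little scatter. The intervals of PHGDH, PSAT1 and MTHFD2L are also clear of 0, though these genes were not called, while that of ALDH1L2 runs from -2.56 to 0.02.

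The 3 serine synthesis genes all had lower means in si-METTL16 cells. PSPH (chromosome 7 from 56011051 to 56051604) had 69.3, 50.9 and 68.3 CPM in si-NC replicates 1, 2 and 3 and 39.5, 32.6 and 34.6 CPM in the si-METTL16 replicates. No si-METTL16 sample reached the si-NC range. The log2 fold change of PSPH was -0.82 (standard error 0.14, adjusted p = 0.00404 from edgeR), and it stayed past the threshold in all 6 fits that dropped a sample, with values from -0.96 to -0.75. PHGDH (chromosome 1 from 119648411 to 119744226), which encodes the dehydrogenase that commits carbon to this pathway, had 220.5, 108 and 166 CPM in the si-NC replicates and 124, 84.2 and 83.8 CPM in the si-METTL16 replicates. Its groups overlapped, since si-NC replicate 2 lay below si-METTL16 replicate 1. The log2 fold change of PHGDH was -0.76, with a 95% interval from -1.39 to -0.12 and an adjusted p of 0.0641. PSAT1 (chromosome 9 from 78297143 to 78330093), the aminotransferase of the middle step, had 554, 343 and 439 CPM in the si-NC replicates and 380, 240.4 and 218 CPM in the si-METTL16 replicates. It showed the same overlap, with si-NC replicate 2 below si-METTL16 replicate 1, and a log2 fold change of -0.67 (95% interval from -1.25 to -0.10, adjusted p = 0.0685).

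The calls of PHGDH and PSAT1 depended on single samples and on the test. Without si-NC replicate 2, PHGDH was at -0.99 on the log2 scale (adjusted p = 0.0167) and PSAT1 at -0.84 (adjusted p = 0.0476), so that all 3 serine synthesis genes were called lower, with 29.2% of all genes called in that fit. Without si-METTL16 replicate 1, PHGDH was at -0.97 (adjusted p = 0.0451) and PSAT1 at -0.96 (adjusted p = 0.0145), where 29.0% of all genes were called. In the other 4 fits neither gene was called, and without si-NC replicate 1 both were at -0.49 (adjusted p = 0.18 for PHGDH and 0.193 for PSAT1). With all 6 samples kept, the Wald test of DESeq2 called both (adjusted p = 0.00825 for PHGDH and 0.0112 for PSAT1). It called 5394 of all 15089 genes tested, 2616 of them lower. The edgeR fit with the replicate number added as a block also called both (adjusted p = 0.0149 for PHGDH and 0.011 for PSAT1), among 5013 of all genes. Over all alternatives tried, the adjusted p ranged from 0.00825 to 0.18 for PHGDH and from 0.011 to 0.193 for PSAT1, and both log2 fold changes were below 0 in all 14.

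**Figure D2:**
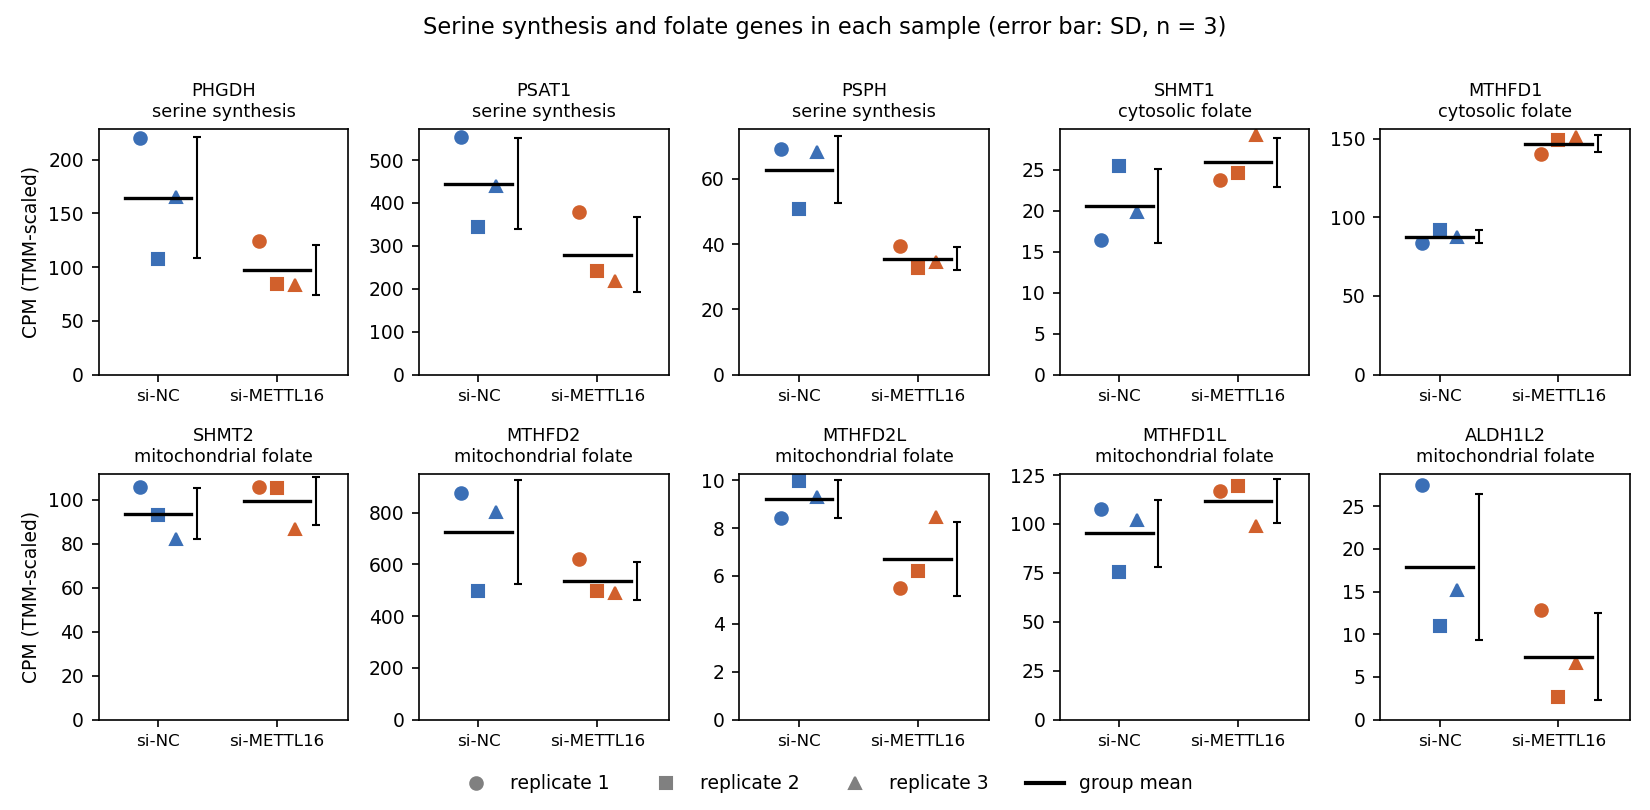
TMM-scaled CPM of the 10 genes in each sample (blue, si-NC; orange, si-METTL16; circle, square and triangle for replicates 1, 2 and 3), with the mean and SD of 3 samples; each panel starts at 0. MTHFD1 and PSPH separate the groups, while the si-NC values of PHGDH reach from 108 to 220.5 CPM.

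Of the cytosolic folate genes, MTHFD1 (chromosome 14 from 64388031 to 64463457) had the tightest values of the 10. It had 83.5, 91.7 and 87.6 CPM in si-NC replicates 1, 2 and 3 and 140.4, 149 and 151 CPM in the si-METTL16 replicates. The groups were far apart, and the highest sample exceeded the lowest by 1.10 times within si-NC and 1.07 times within si-METTL16. The log2 fold change of MTHFD1 was 0.75 (standard error 0.06, adjusted p = 0.000283), and it was called in all 14 alternatives, from 0.65 to 0.77. SHMT1 (chromosome 17 from 18327860 to 18363563) had 16.5, 25.4 and 19.9 CPM in the si-NC replicates and 23.8, 24.6 and 29.3 CPM in the si-METTL16 replicates. Here si-NC replicate 2 lay above si-METTL16 replicates 1 and 2. The log2 fold change of SHMT1 was 0.33 (95% interval from -0.07 to 0.73, adjusted p = 0.173), and it was called only without si-NC replicate 2, at 0.50 (adjusted p = 0.0441), with values down to 0.19 in the other fits that dropped a sample.

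Among the mitochondrial genes, those of the oxidising steps had lower means in si-METTL16 cells, and SHMT2 and MTHFD1L, the entry and exit of the pathway, had slightly higher ones. SHMT2 (chromosome 12 from 57229327 to 57234935) had 106, 93.0 and 82.3 CPM in the si-NC replicates and 106, 105 and 86.7 CPM in the si-METTL16 replicates. These ranges overlapped nearly in full. Its log2 fold change was 0.08, with a 95% interval from -0.19 to 0.36 and an adjusted p of 0.609. MTHFD1L (chromosome 6 from 150865549 to 151101887) had 108, 75.4 and 102 CPM in the si-NC replicates and 117, 120 and 98.9 CPM in the si-METTL16 replicates. The low si-NC value was again that of replicate 2. For MTHFD1L the log2 fold change was 0.23 (95% interval from -0.11 to 0.57, adjusted p = 0.248). It was 0.083 without si-NC replicate 2, and ranged up to 0.33 in the other fits that dropped a sample.

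MTHFD2 (chromosome 2 from 74198562 to 74217565), the main mitochondrial dehydrogenase and cyclohydrolase of proliferating cells, had 875, 497 and 803 CPM in si-NC replicates 1, 2 and 3 and 622, 496 and 489 CPM in the si-METTL16 replicates. The values of si-NC replicate 2 and si-METTL16 replicate 2 were nearly equal, and the other si-NC samples lay above all si-METTL16 samples. Its log2 fold change was -0.44 (95% interval from -0.92 to 0.05, adjusted p = 0.142), with -0.65 (adjusted p = 0.0097) without si-NC replicate 2 and -0.28 (adjusted p = 0.36) without si-NC replicate 1. MTHFD2L (chromosome 4 from 74114174 to 74303099), its paralog, was low, with 8.40, 9.96 and 9.30 CPM in the si-NC and 5.48, 6.22 and 8.46 CPM in the si-METTL16 replicates. The overlap came from si-METTL16 replicate 3, which lay just above si-NC replicate 1. The log2 fold change of MTHFD2L was -0.45 (95% interval from -0.89 to -0.01, adjusted p = 0.099), and it was called only without si-METTL16 replicate 3, at -0.65 (adjusted p = 0.0268), in a fit that called 29.4% of all genes.

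ALDH1L2 (chromosome 12 from 105019784 to 105084577) had the largest difference of means of the 10 on the log2 scale and the largest spread. It had 27.5, 10.96 and 15.2 CPM in si-NC replicates 1, 2 and 3 and 12.9, 2.69 and 6.62 CPM in the si-METTL16 replicates. The highest sample exceeded the lowest by 2.51 times within si-NC and by 4.78 times within si-METTL16, and si-METTL16 replicate 1 lay above si-NC replicate 2. The log2 fold change was -1.27 (95% interval from -2.56 to 0.02, adjusted p = 0.112). Without si-METTL16 replicate 1, ALDH1L2 was called at -1.93 (adjusted p = 0.0375), and over all 6 fits that dropped a sample it ranged from -1.93 to -0.82. With all 6 samples kept and the replicate number added to the edgeR fit as a block, it was called at -1.39 (adjusted p = 0.00905). That fit called 5013 of all 15089 genes tested.

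Mitochondrial and cytosolic folate enzymes were then compared within each sample, as the mean log2 CPM of the 5 mitochondrial genes minus that of SHMT1 and MTHFD1. This difference was 1.01, 0.11 and 0.59 in the control replicates and -0.04, -0.58 and -0.49 in the si-METTL16 replicates. The groups did not overlap, with the smallest margin for si-NC replicate 2 and si-METTL16 replicate 1. The group means differed by -0.94 on the log2 scale, made up of -0.39 in the mitochondrial mean, whose groups overlapped, and 0.55 in the cytosolic mean, whose groups did not. The value is a description of genes listed with earlier results of these data known and was given no p-value. It depended on which enzymes stood for the cytosol. With PHGDH, PSAT1 and PSPH, which are cytosolic too, added to SHMT1 and MTHFD1, the difference of the group means was -0.17.

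**Figure D3:**
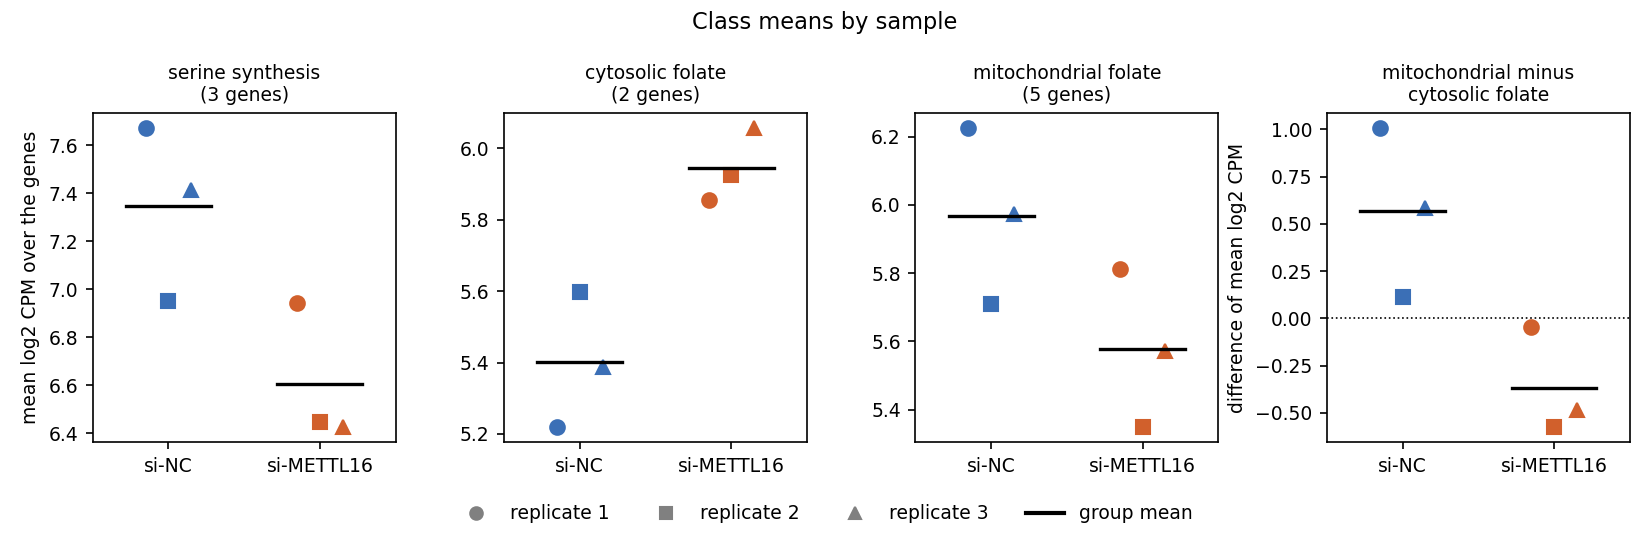
Mean log2 CPM of the genes of each class in each sample, and the mitochondrial minus the cytosolic folate mean; bars are means of 3 samples and symbols the replicates. Serine synthesis is lower in every si-METTL16 sample, though 6.95 of si-NC replicate 2 and 6.94 of si-METTL16 replicate 1 nearly meet, cytosolic folate is higher, the mitochondrial class overlaps, and the difference runs from 0.11 to 1.01 in si-NC and from -0.58 to -0.04 in si-METTL16 samples.

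Pairs of enzymes for the same reaction were compared as log2 ratios of their CPM. The ratio of MTHFD1L to MTHFD1, the mitochondrial and cytosolic formyltetrahydrofolate synthetases, was 0.37, -0.28 and 0.22 in the control replicates and -0.27, -0.32 and -0.61 in the si-METTL16 replicates. Only si-NC replicate 2 fell among the si-METTL16 values. The means differed by -0.50 (exact two-sided permutation test, p = 0.2, adjusted p = 0.6 over 3 ratios). For SHMT2 to SHMT1 the means were 2.20 ± 0.43 and 1.94 ± 0.32 in si-NC and si-METTL16 cells (SD, n = 3 each), and the groups overlapped (exact permutation test, p = 0.6, adjusted p = 0.8). Their difference of -0.26 was -0.02 without si-NC replicate 1, -0.07 without si-METTL16 replicate 3 and -0.43 without si-NC replicate 2. For the mitochondrial paralogs MTHFD2 and MTHFD2L, they were 6.26 ± 0.55 and 6.33 ± 0.49 (SD, n = 3 each, exact permutation test, p = 0.8, adjusted p = 0.8). With 3 samples against 3, this exact test cannot go below p = 0.1, so none of the 3 ratios could have passed the threshold.

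Deposited FPKM divides each count by a length set for its gene, so levels of different genes depend on those lengths. By this measure, PSAT1 was the highest of the 10 genes with 168 ± 39.8 and 104 ± 32.1 in si-NC and si-METTL16 cells (SD, n = 3 each). MTHFD2 came next with 76.8 ± 21.2 and 55.9 ± 7.503 (SD, n = 3 each), and held 76.0% of the summed FPKM of the mitochondrial class over all samples. In si-NC cells there followed MTHFD1L at 13.2 ± 2.40, PSPH at 8.74 ± 1.44, PHGDH at 8.48 ± 2.90 and MTHFD1 at 7.34 ± 0.34 (SD, n = 3 each), of which the last 3 did not differ beyond their spread. SHMT2 had 5.25 ± 0.65, SHMT1 1.94 ± 0.43, ALDH1L2 1.26 ± 0.60 and MTHFD2L 0.562 ± 0.0477 (SD, n = 3 each), and SHMT1 and ALDH1L2 overlapped. In si-METTL16 cells, MTHFD1 at 12.1 ± 0.52 (SD, n = 3) stood above PHGDH at 4.94 ± 1.15 and PSPH at 4.87 ± 0.46 (SD, n = 3 each). The FPKM of MTHFD2 was 13.2, 6.85 and 11.6 times that of MTHFD1 in the control replicates and 5.60, 4.20 and 4.10 times in the si-METTL16 replicates. These ratios did not overlap between the groups. The FPKM ratios of SHMT2, MTHFD2L and ALDH1L2 to MTHFD1 did not overlap either, while that of MTHFD1L did. The lengths implied by the counts, the sample totals and FPKM ran from 2662 bases for PSAT1 to 19533 for PHGDH. That of SHMT2, 17952 bases, exceeds its whole span on chromosome 12, from 57229327 to 57234935. Such a length cannot be that of the gene or its transcript. The order of genes, the share held by MTHFD2 and the size of its ratio to MTHFD1 rest on these lengths and are uncertain. The ratios of MTHFD2 and the other mitochondrial genes to MTHFD1 share the denominator that rose, were chosen after the values were seen and were not tested.

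The windows around the RefSeq start sites of these genes (250 bases before to 50 after the start, GRCh38.p14) were searched on both strands for CACGTG (the E-box, bound by MYC among others), TGATGNAA (the core of amino acid response elements) and the E2F motifs TTTCCCGC and TTTGGCGC. The sequence table held 7 of the 10 genes, with PSPH, SHMT2 and ALDH1L2 missing. Both formyltetrahydrofolate synthetase genes held an E-box, which 7.26% of all 35116 windows hold, and MTHFD1L alone held the response core, found in 3.62% of all windows. No E2F motif, present in 1.63% and 0.652% of windows, was found in the 7 genes. The stretches below are shown because they belong to the gene that rose and to its mitochondrial counterpart that was not called. Capitals mark the motif, and all 3 are on the plus strand, at chr14:64388286-64388345, chr6:150866320-150866349 and chr6:150866346-150866375 in this order.

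MTHFD1, E-box: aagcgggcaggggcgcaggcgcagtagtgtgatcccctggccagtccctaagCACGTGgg

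MTHFD1L, E-box: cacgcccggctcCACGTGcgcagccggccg

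MTHFD1L, response core: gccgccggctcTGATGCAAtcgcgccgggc

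The E-box of MTHFD1 begins at position -15 from its start site. MTHFD1L has 4 start sites in the table, and its E-box and response core begin at positions -154 and -129 from one of them. The same motifs begin at -1 and 24 from another start site and at -115 and -90 from a further one. The window of the remaining start site held neither. The shares above are of windows, and the 7 genes had 11 windows, so a gene with several start sites had more than 1 window in which a motif could be found. These are matches of letters, and binding was not measured.

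The same control samples were highest and lowest for several serine synthesis and mitochondrial genes. For PHGDH, PSAT1, PSPH, MTHFD2, MTHFD1L and ALDH1L2, si-NC replicate 1 was the highest and si-NC replicate 2 the lowest of the control samples, as for 6 of the 10 genes against 19.02% of all tested genes. Among the si-METTL16 samples, replicate 1 was the highest for 6 of the 10 genes, against 32.6% of all tested genes. These were PHGDH, PSAT1, PSPH, MTHFD2, ALDH1L2 and SHMT2, so MTHFD1L was not among them. In a list of 20 genes of the amino acid response, written by hand and free of the 10 genes, si-NC replicate 1 was highest and replicate 2 lowest for 14. In the same list, si-METTL16 replicate 1 was highest of its group for 16. These shares describe genes measured in the same 6 samples, which are not independent of each other.

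**Figure D4:**
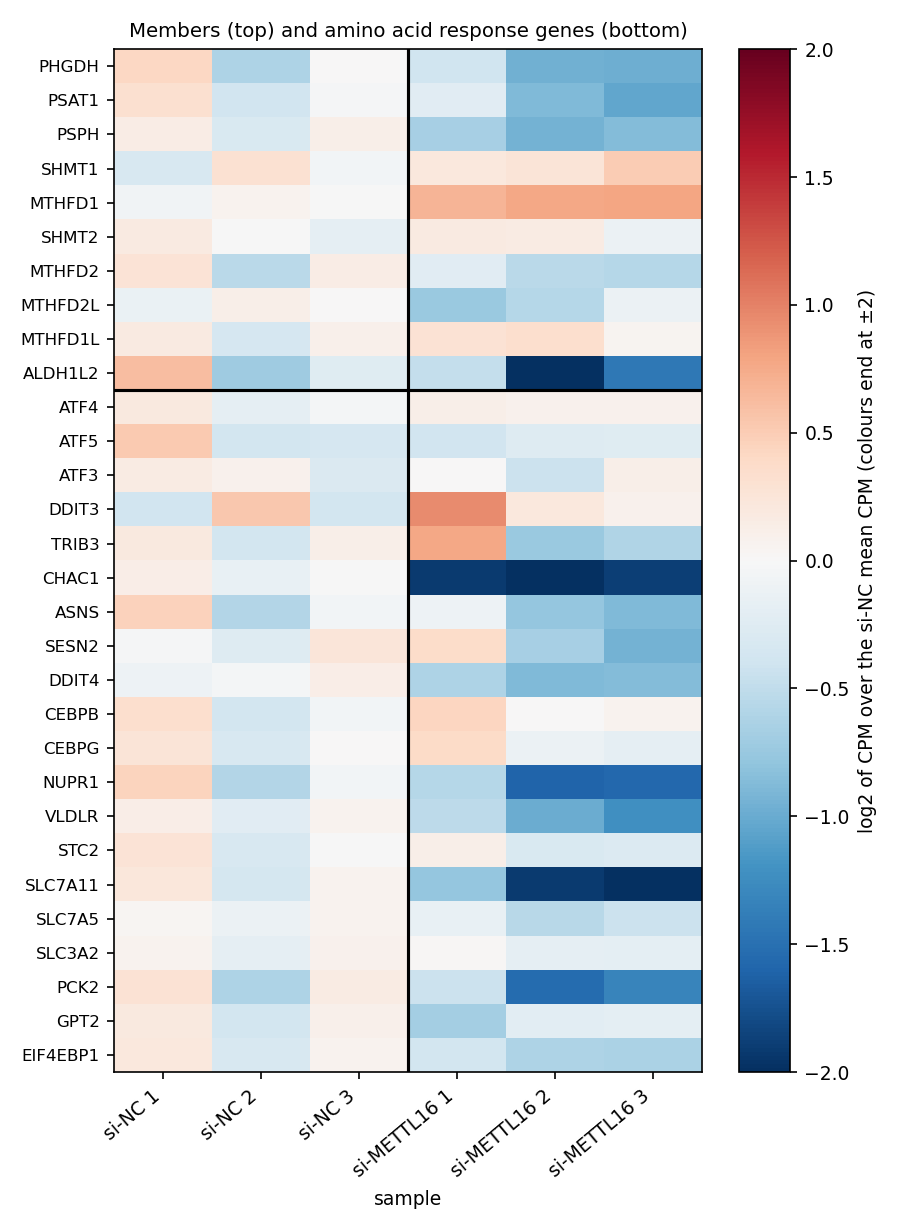
Log2 of the CPM of each sample over the si-NC mean CPM, for the 10 genes (top) and 20 amino acid response genes (bottom); blue is lower and red higher, and colours end at ±2 while the lowest value is -3.21. The column of si-NC replicate 2 is bluer than its neighbours for PHGDH, PSAT1, MTHFD2, ALDH1L2 and ASNS, and MTHFD1 stays red in all si-METTL16 columns.

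The amino acid response list itself moved in 1 direction where it moved. Of its 20 genes, all tested, 7 fell and 0 rose, a share of 35.0% next to 35.9% of all tested genes and, for lower calls, 17.5%. Its median log2 fold change was -0.32. CHAC1, a glutathione-degrading enzyme, had 88.8, 72.5 and 80.4 CPM in si-NC replicates 1, 2 and 3 and 21.4, 8.72 and 21.9 CPM in the si-METTL16 replicates, and its log2 fold change, the lowest of the list, was -2.21 (adjusted p = 0.00199). SLC7A5, a transporter of large neutral amino acids, had the smallest called change, -0.37 (adjusted p = 0.0334), and was called in 2 of 6 fits that dropped a sample. ATF4 itself had 527 ± 68.2 CPM in the control and 562 ± 7.85 CPM in the METTL16-silenced group (SD, n = 3 each), which differed by 0.09 on the log2 scale (95% interval from -0.12 to 0.31, adjusted p = 0.457). ASNS, the asparagine synthetase gene, had 286, 139 and 200.2 CPM in the si-NC and 193, 122 and 113 CPM in the si-METTL16 replicates, with si-NC replicate 2 again the lowest control (log2 fold change -0.55, adjusted p = 0.187). The number of list genes called depended on single samples, with 3 without si-NC replicate 1, 4 without si-NC replicate 3, 3 without si-METTL16 replicate 2, 4 without si-METTL16 replicate 3 and 10 without si-METTL16 replicate 1. Calls over all genes fell in each of these fits, from 5418 of 15089 with every sample kept. In the same order they were 4412 of 15441, 4159 of 15448, 4344 of 15488, 4526 of 15407 and 4481 of 15477.

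A list of 33 further genes of serine, glycine and folate metabolism, also written by hand, was counted in the same way. Of these, 27 passed the filter on low counts, and FTCD, ALDH1L1, GNMT, SARDH, DMGDH and SDS did not, with at most 12 counts in any sample. Of the 27, 5 rose and 6 fell, 40.7% next to 35.9% of all tested genes, and their median log2 fold change was -0.13. TYMS, the thymidylate synthase that consumes a folate-bound carbon, had 56.6, 97.2 and 86.0 CPM in si-NC replicates 1, 2 and 3 and 199.5, 226 and 207 CPM in the si-METTL16 replicates. It rose by 1.40 on the log2 scale (standard error 0.18, adjusted p = 0.00139), the highest of the list, and its groups did not overlap. GGH, which trims the glutamate tail of folates, rose by 0.71 (adjusted p = 0.0015), and SFXN1, the mitochondrial serine carrier, by 0.36 (adjusted p = 0.00778). GART, a purine synthesis enzyme that uses formyl folate, rose by 0.33 (adjusted p = 0.00849), while ATIC, the other formyl transferase of that pathway, was at -0.03 (adjusted p = 0.648). DLD, a lipoamide dehydrogenase shared by the glycine cleavage system and other complexes, passed at 0.18 (adjusted p = 0.0335), but in 0 of 6 fits that dropped a sample.

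Among the 6 genes that fell were GCSH, SLC6A9, FPGS, MTR and MTFMT. FPGS, which adds the glutamate tail that keeps folates in the cell, had 18.5 ± 2.51 CPM in the control and 11.1 ± 1.11 CPM in the METTL16-silenced group (SD, n = 3 each), with a fold change of -0.73 on the log2 scale (adjusted p = 0.00664). MTR, the methionine synthase that joins the folate and methionine cycles, fell, its log2 fold change being -0.53 (adjusted p = 0.0135). SLC6A9, a glycine transporter, was at -0.83 (adjusted p = 0.035) and MTFMT, the mitochondrial methionyl-tRNA formyltransferase, at -0.53 (adjusted p = 0.0301), and these were called in 2 and 1 of the 6 fits without a sample. SLC25A32, the mitochondrial folate carrier, had 54.8 ± 1.61 CPM in control and 58.2 ± 1.34 CPM in silenced samples (SD, n = 3 each, log2 fold change 0.09, adjusted p = 0.335). GCSH, the hydrogen carrier of glycine cleavage, had 8.05 ± 1.75 CPM in control and 3.01 ± 1.25 CPM in silenced samples (SD, n = 3 each, log2 fold change -1.41, adjusted p = 0.0143). Of all counts on GCSH and its pseudogenes, 78.2% lay on the pseudogenes, and GCSHP5 fell too (log2 fold change -0.53), so its value is uncertain.

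**Figure D5:**
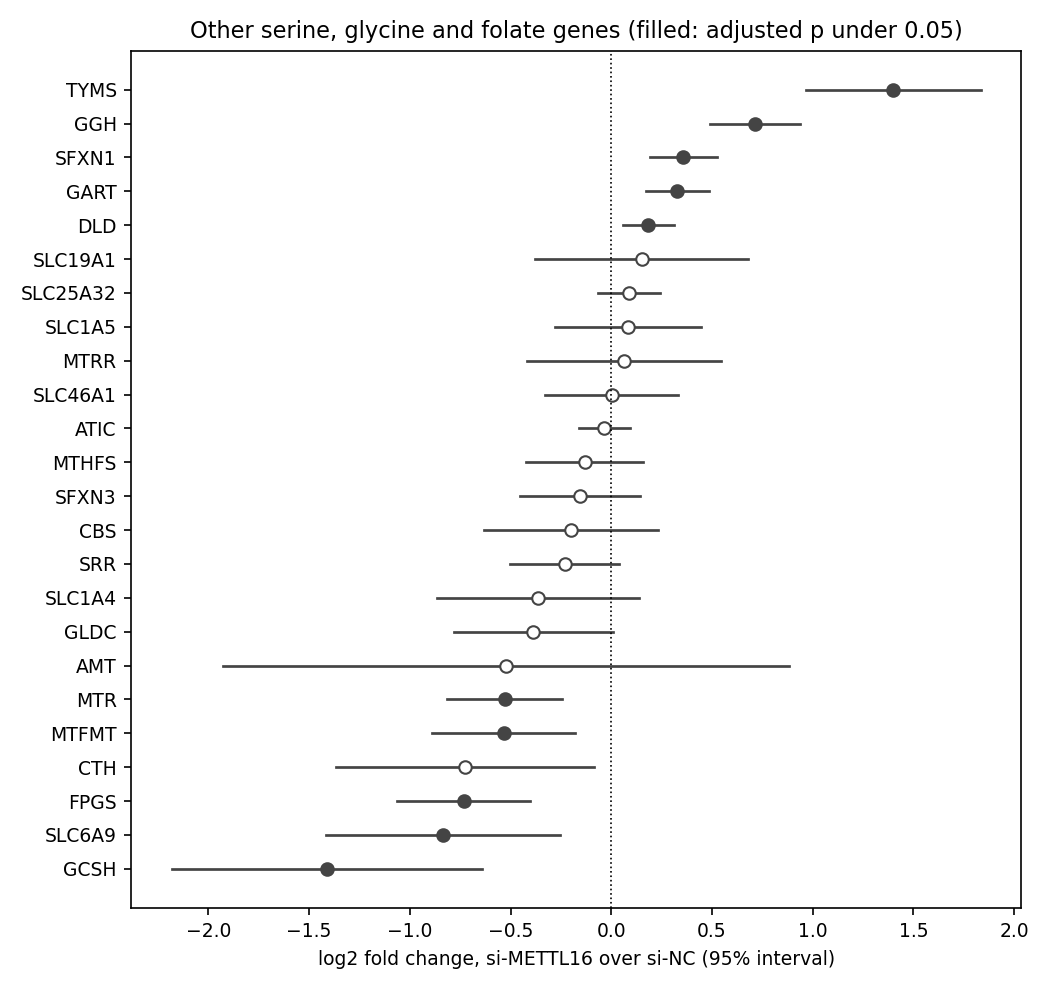
Log2 fold change (si-METTL16 over si-NC) with 95% intervals for 24 of the 27 tested genes of the further list, sorted by value; filled circles have an adjusted p under 0.05. TYMS at 1.40 and GCSH at -1.41 mark the ends, and AMT has the widest interval.

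Some of the 10 genes share their locus or sequence with other genes, and the sources used here do not say whether counting used strand. MTHFD1 overlaps ZBTB25 on the opposite strand over 14352 bases, but ZBTB25 had 959 counts over all samples against 11847 for MTHFD1 and a log2 fold change of -0.22 (adjusted p = 0.351). ALDH1L2 overlaps C12orf45 over 54414 bases on the opposite strand, with 948 counts against 1288, and C12orf45 was at -0.05 (adjusted p = 0.909). SHMT1 shares 196 bases with SMCR8 on the opposite strand, which had 14694 counts against 2356 and rose, its log2 fold change being 0.38 (adjusted p = 0.00427), so the value of SHMT1 is uncertain. Inside MTHFD1L lies the pseudogene AL133260.1, with 842 counts against 10452 and a log2 fold change of -0.26 (adjusted p = 0.271). The pseudogene PSPHP1 had 237 counts, 4.52% of those of PSPH and itself, and a log2 fold change of -0.36 (adjusted p = 0.218). The pseudogenes of PSAT1, MTHFD1 and MTHFD2 held 0.0734%, 0.32% and 0.187% of such sums.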

How the data were processed

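RNA-seq data of 6 PANC-1 samples were used, grouped by their titles into 3 si-NC and 3 si-METTL16. Counts of reads per gene were deposited as raw, unscaled numbers. The authors also deposited FPKM values, in which each count is divided by a length set for its gene and by the sample total. How that length was set is not given in the sources used here. The submitters' processing notes name HISAT2 2.0.4, StringTie 1.3.0 and GRCh38, with no role given. The annotation release and the use of strand are not given in the sources used here. Gene coordinates are those of the deposited table.

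Counts were filtered with filterByExpr (minimum count 10, minimum total count 15), scaled by TMM and tested by quasi-likelihood (glmQLFit, glmQLFTest) in edgeR 4.0.16 under R 4.3.3. Adjustment was by Benjamini-Hochberg, and the threshold was 0.05. The methods of the study name limma, which was run as an alternative (limma 3.58.1), as was DESeq2 1.42.0. Each standard error was derived from the F statistic of the fold change, and 95% intervals from its t distribution. Log2 CPM values for class means used a prior count of 2. Exact permutation tests used scipy 1.17.1. Alternatives were DESeq2 size factors, other count filters, limma on voom and on log2(FPKM + 1) or log2(FPKM + 0.1) values, a replicate block, and each sample left out. Scripts were tested on simulated data.

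The 10 genes and the other lists were chosen with earlier results of these data known. Genes named were the 10 members, METTL16, called genes of the further pathway list with a few of its genes whatever their call, and ATF4, ASNS, CHAC1 and the called genes with the highest and lowest change of the amino acid response list, with genes and pseudogenes that share locus or sequence with a member. Some genes of the further list are not reported here. ATIC was named after its value was seen. The p-values measure only the spread between these samples. MTHFD2L and ALDH1L2 had the fewest counts of the 10, 813 and 1288 over all samples, and 3 counts are 0.167 to 0.192 CPM. ALDH1L2 also had the largest spread within the groups.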

Additional observations from a re-analysis of the deposited data

How the results depend on the processing

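Fold changes were recomputed under 14 alternatives, of which MTHFD2L and ALDH1L2 were measured in 12. The calls of MTHFD1, PSPH and METTL16 held in all 14, and the directions of the 10 genes in all but 1, SHMT2 without si-NC replicate 3. Leaving out each sample in turn gave 1 to 2 genes of the 10 called higher, 1 to 4 called lower, 3 to 10 genes of the amino acid response list called, log2 fold changes of SHMT2 from -0.00195 to 0.18, and differences of the log2 ratio from -0.23 to 0.31 for MTHFD2 to MTHFD2L, from -0.43 to -0.02 for SHMT2 to SHMT1 and from -0.69 to -0.37 for MTHFD1L to MTHFD1. The fits without 1 sample called 4159 to 4526 of all genes, with 15407 to 15488 tested. The Wald test of DESeq2 called 3 genes of the 10 lower, adding PHGDH and PSAT1 to PSPH. It called 5394 of all 15089 genes tested, 2616 of them lower. Both groups carry the numbers 1 to 3, and the deviations of same-numbered samples correlated at 0.025, 0.037 and 0.03, under the level of 0.1 set for pairing, although every sample correlated best with its own number. With the replicate block, 4 of the 10 genes were called lower, PHGDH, PSAT1, PSPH and ALDH1L2, and 10 genes of the further pathway list and 9 of the amino acid response list were called. That fit called 5013 of all 15089 genes tested, 2414 of them lower. The mitochondrial minus cytosolic difference is a difference of group means, which the block cannot change. It was -0.49 on log2(FPKM + 1) and -0.56 on log2(FPKM + 0.1), where MTHFD2L and ALDH1L2 were removed by the FPKM filter, and -0.17 with the serine synthesis genes in the cytosolic class. In alternatives chosen after seeing the data, it was -0.68 without ALDH1L2 and -0.92 without MTHFD2L. The cause of the other changes was not tested.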
